A study of Mus musculus with 8 samples.

Results

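The cyclins, the cyclin-dependent kinases (CDKs), their inhibitors and the ubiquitin ligases of the cell cycle form a set of 41 genes. They were chosen by symbol, with earlier results of these data known. Of these, 40 were measured by a transcript cluster of the array that carries the gene's symbol alone, out of 19938 genes measured in this way and 35556 transcript clusters in all. Cyclin B1 (Ccnb1) had no such cluster in the annotation used and was not analysed here. Where several clusters carry the same symbol, as for 5 of the 40, the brightest over all 8 arrays stands for the gene.

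RNA came from Neuro2a cells, an established neuroblastoma line derived from AJ mice, of which 4 cultures were anchorage dependent (AD) and 4 anchorage independent (AI). AD cultures were attached and kept in DMEM with 10% fetal bovine serum, penicillin/streptomycin and L-glutamine. AI cultures were floating tumorspheres kept in NeuroCult neural stem cell medium, to which EGF (20 ng/ml), heparin (2 µg/ml), bFGF (10 ng/ml) and the supplier's supplements had been added. Attachment and medium change together between the phenotypes, so their parts cannot be told apart, and all arrays stem from a single cell line. The design text calls the 4 AD and the 4 AI samples independent cultures, whereas the methods speak of replicate hybridizations. The p-values therefore measure only the spread between these samples, which may be technical.

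Median array signals lay at 5.82 to 5.92 log2 for the AD arrays and 5.92 to 5.99 log2 for the AI arrays. Of 13 measured neuroblastoma markers, 12 lay above the median of every array in AD cells and 13 did so in AI cells. Their mean signal was 9.51 to 9.64 log2 over the AD arrays and 9.04 to 9.15 log2 over the AI arrays. The log2 ratios of AD over AI ranged from -0.49 to 3.01, with 7 positive, 6 negative and a median of 0.06. The largest were 3.01 for Dbh, 1.81 for Mycn and 1.13 for Phox2a. The part of these differences in the results was not tested. Of 13 markers of blood, endothelial, epithelial, glial and stromal cells, 3 lay above the median of every array in AD cells and 3 in AI cells. The mean signal of those 13 was 5.47 to 5.63 log2 over the AD arrays and 5.55 to 5.59 log2 over the AI arrays. AD replicate 4 often stood apart from the other AD arrays in the genes described here, and its values are given beside the results that rest on it. It also stood apart over all clusters. Its mean absolute deviation from the mean of its group was 0.134 log2 there, against 0.083 to 0.110 log2 for the other AD arrays.

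Progress through the cell cycle is driven by CDKs, and those that drive it are active only when bound to a cyclin. D-type cyclins with Cdk4 and Cdk6 act in G1, cyclins E and A with Cdk2 drive entry into and passage through S phase, and cyclin B with Cdk1 drives mitosis. CDK inhibitors, the inhibitory kinases Wee1 and Myt1, the Cdc25 phosphatases that undo their phosphorylation, and the ubiquitin ligases SCF and APC/C, which degrade cyclins and inhibitors, set the timing. Many of the S and G2/M genes are transcribed only in cycling cells, through E2F factors and, later in the cycle, through the MuvB complex with B-Myb and FoxM1.

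The S and G2/M genes are known for short promoter words, and the following stretches are shown because they carry them or stand beside them. Of the 41 genes, 29 had a promoter window in RefSeq's promoter table (mouse build GRCm38.p6), in 36 windows of 250 bases before to 50 bases after a start. Capitals mark the CHR word TTTGAA, the CCAAT box, the E2F words TTTGGCGC, TTTCGCGC, TTTCCCGC and TTTGCCGC, and the E-box CACGTG, each searched on both strands. None of these words contains another. The sequences are the 150 bases before the start, 5′ to 3′ on the strand of the gene. They lie at chr9:109875429-109875578 (plus strand) for Cdc25a, chr10:128705052-128705201 (minus strand) for Cdk2, chr10:5805466-5805615 (minus strand) for Fbxo5, chr2:163054485-163054634 (plus strand) for Mybl2, chr10:69352913-69353062 (minus strand) for Cdk1, chr17:24251410-24251559 (minus strand) for Ccnf and chr10:127063385-127063534 (plus strand) for Cdk4.
Cdc25a: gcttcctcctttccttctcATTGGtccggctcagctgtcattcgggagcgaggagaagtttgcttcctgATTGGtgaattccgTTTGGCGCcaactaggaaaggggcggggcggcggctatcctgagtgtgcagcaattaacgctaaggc
Cdk2: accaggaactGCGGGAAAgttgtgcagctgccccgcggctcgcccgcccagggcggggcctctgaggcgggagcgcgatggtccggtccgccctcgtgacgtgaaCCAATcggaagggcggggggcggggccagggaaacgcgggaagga
Fbxo5: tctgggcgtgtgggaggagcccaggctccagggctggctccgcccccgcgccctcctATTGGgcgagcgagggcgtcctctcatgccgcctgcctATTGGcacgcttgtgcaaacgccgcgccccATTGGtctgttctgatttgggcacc
Mybl2: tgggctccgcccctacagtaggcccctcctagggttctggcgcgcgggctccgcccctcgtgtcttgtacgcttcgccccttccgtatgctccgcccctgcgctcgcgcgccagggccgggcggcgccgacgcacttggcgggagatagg
Cdk1: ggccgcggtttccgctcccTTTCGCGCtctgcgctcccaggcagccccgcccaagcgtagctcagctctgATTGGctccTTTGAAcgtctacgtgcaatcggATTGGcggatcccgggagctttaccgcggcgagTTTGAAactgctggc
Ccnf: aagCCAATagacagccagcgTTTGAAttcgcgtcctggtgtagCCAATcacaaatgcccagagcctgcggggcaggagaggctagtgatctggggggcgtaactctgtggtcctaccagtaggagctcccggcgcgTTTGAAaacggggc
Cdk4: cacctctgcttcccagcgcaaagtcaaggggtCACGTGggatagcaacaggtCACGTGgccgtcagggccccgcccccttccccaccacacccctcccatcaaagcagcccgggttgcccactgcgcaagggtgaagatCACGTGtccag

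The Cdk1 window held a CHR word at -15, counted from the start at 1, another at -71 and an E2F word at -131. It also held CCAAT boxes on the other strand at -48, -80 and -208, the last of them outside the stretch shown. Cdc25a had an E2F word at -67 and Cdk2 one at -140 on the other strand. The Mybl2 window held none of the words, which says only that these letters are not in it. Over all members, a CHR word was in the windows of 11 of 29 genes (12 of 36 windows, against 17.9% of all 32851 windows), a CCAAT box in those of 20 (20 windows, against 37.4%), an E2F word in those of 4 (4 windows, against 2.26%) and an E-box in those of 5 (5 windows, against 7.15%). A match is a description of the sequence and not evidence of binding.

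AD and AI cells were compared to see which of the cycle genes differ between the fast growing and the slow growing phenotype. A gene is called when limma gave it a p under 0.05 after Benjamini-Hochberg adjustment across all clusters, together with a ratio of at least 1.5-fold. Ratios are AD over AI on the log2 scale. Of the 40 genes, 7 were called higher in AD cells and 0 were called lower. These were Mybl2, Cdc25c, Fbxo5, Cdc25a, Ccne2, Wee1 and Lin54, and 4 of them belong to S phase, 2 to G2/M and 1 to the inhibitors. Over all clusters, 1.39% were called higher and 2.53% lower (3.93% in either direction), and over the named genes 2.02% and 2.40% (4.41% in either direction). Without a minimum fold, 25 of the 40 passed the adjusted p of 0.05 toward AD cells and 1 toward AI cells, where the shares over all clusters were 8.5% and 9.62%, and over the named genes 11% and 10.7%. The AD arrays all lay above the AI arrays for 24 of the genes and all below for 1, against 10.6% and 11.5% of all clusters and 13.6% and 13.2% of the named genes. The median log2 ratio was 0.29 over the 40 genes and 0.01 over the named genes, and 36 of the 40 ratios were positive, against 49.8% of all clusters and 54.2% of the named genes. Most of the differences were thus smaller than 1.5-fold, and 18 genes passed the adjusted p toward AD cells without reaching that fold. Since the genes were chosen with earlier results known, the shares beside them are a description and not a test. Of the 26 genes under the adjusted p in either direction, 15 were under it in each of 16 alternative refits and 11 were not.

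Without AD replicate 4, 12 genes were called, the same 7 and also Ccne1, Cdk2, Cdk1, Foxm1 and Ccnf. Calls toward AD cells then also rose among all features, to 2% of the clusters and 2.65% of the named genes. That array had the lowest AD signal for 29 of the 40 genes, against 32.7% of the named genes. Among the related lists described below, it was lowest for 14 of 17 Rb, E2F and MuvB genes and 10 of 15 APC/C genes. The counts were 19 of 34 for other cyclins and CDKs, 9 of 16 for SCF and other ligases and 2 of 9 for other growth inhibitors. For the 7 called genes, its distance from the AI mean was 35.3% to 72.7% (median 55.7%) of the distance of the other 3 AD arrays. The cause was not tested. In RNA of whole cultures, fewer cells in a phase and less RNA per cell cannot be told apart.

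**Figure D1:**
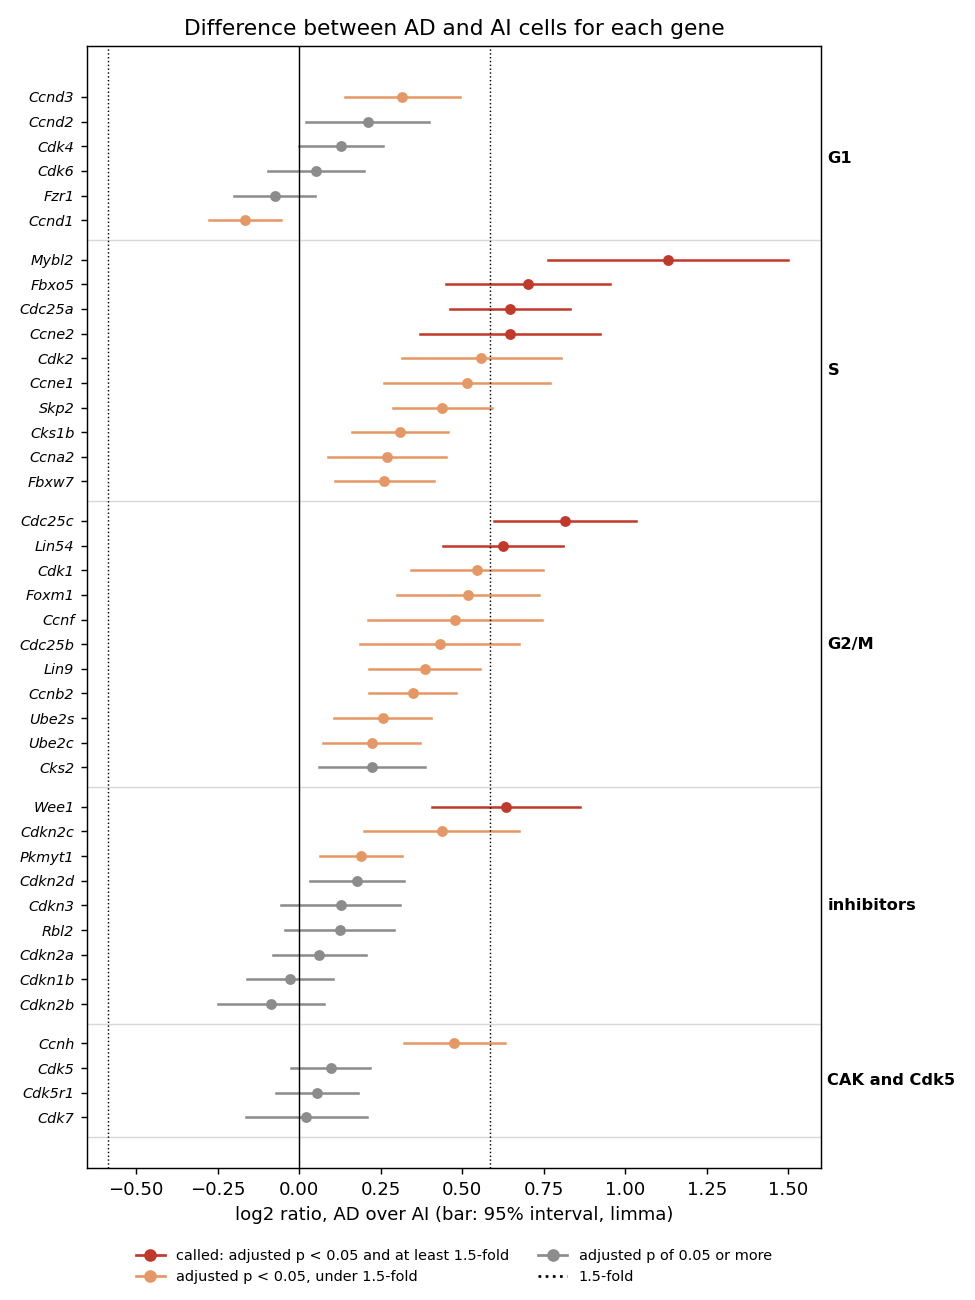
Log2 ratio of AD over AI cells for the 40 genes, grouped by phase, with the 95% interval from limma as a bar and dotted lines at 1.5-fold. The 7 called genes in dark red lie in the S, G2/M and inhibitor groups, and Mybl2 has the largest ratio, 1.13.

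The S phase genes all differed in the same direction. Of 10 genes of S phase entry and passage, 4 were called, each higher in AD cells, while all 10 had an adjusted p under 0.05 toward AD cells at any fold. The median log2 ratio was 0.54. Mybl2, which encodes B-Myb, the Myb family member that E2F induces at S phase entry and that joins the MuvB complex, had the largest ratio of the 40 genes. Its signal was 9.85, 9.83, 9.82 and 9.12 log2 in AD replicates 1 to 4, against 8.65, 8.36, 8.41 and 8.68 log2 in AI replicates 1 to 4. The arrays did not overlap, and AD replicate 4 lay between the other AD arrays and the AI arrays. AD cells averaged 9.66 ± 0.36 log2 and AI cells 8.52 ± 0.17 log2 (SD, n = 4 each), which is a 2.19-fold difference (log2 ratio 1.13, standard error 0.16, adjusted p = 0.00165 from limma), and the log2 ratio was 1.31 without AD replicate 4.

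Fbxo5, the gene of Emi1, which holds the APC/C inactive during S and G2, was higher in AD cells by 1.63-fold. It had 9.52, 9.63, 9.68 and 9.30 log2 in AD replicates 1 to 4, against 9.05, 8.59, 8.78 and 8.89 log2 in AI replicates 1 to 4 (log2 ratio 0.70, standard error 0.11, adjusted p = 0.00273 from limma). The SD was 0.17 log2 over the AD arrays, against 0.20 log2 over the AI arrays, and the groups did not overlap. Cdc25a, the phosphatase that activates Cdk2 at S phase entry, had 9.41, 9.47, 9.38 and 9.10 log2 in AD replicates 1 to 4, against 8.63, 8.71, 8.69 and 8.73 log2 in AI replicates 1 to 4. The AI arrays lay close together, and the difference was 1.57-fold (log2 ratio 0.65, standard error 0.08, adjusted p = 0.000768 from limma). Its window carries the E2F word shown above, and whether such promoter words bear on the ratios was not tested.

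The E-type cyclins, which bind Cdk2 at the start of S phase, differed in the same direction as Cdk2. Ccne2 had 9.03, 9.21, 9.15 and 8.63 log2 in AD replicates 1 to 4, against 8.48, 8.24, 8.28 and 8.44 log2 in AI replicates 1 to 4, a 1.57-fold difference (log2 ratio 0.65, standard error 0.12, adjusted p = 0.00633 from limma). Its call was lost without AD replicate 2, where the log2 ratio was 0.58, just under 1.5-fold. Ccne1 had 9.63, 9.60, 9.52 and 9.10 log2 in AD replicates 1 to 4, against 9.001, 8.97, 8.83 and 8.99 log2 in AI replicates 1 to 4 (log2 ratio 0.51, standard error 0.11, adjusted p = 0.0125 from limma). Its kinase partner gene Cdk2 had 9.69, 9.79, 9.61 and 9.25 log2 in AD replicates 1 to 4, against 9.11, 8.97, 8.95 and 9.08 log2 in AI replicates 1 to 4 (log2 ratio 0.56, standard error 0.11, adjusted p = 0.0071 from limma). For both genes the arrays did not overlap, AD replicate 4 was the AD array closest to the AI cells, and the ratio was under 1.5-fold with all arrays but reached 0.64 for Ccne1 and 0.67 for Cdk2 on the log2 scale without that array.

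The other S phase genes differed less. Skp2, the F-box protein that marks the inhibitor p27 for degradation, had a log2 ratio of 0.44 (95% interval 0.29 to 0.59, adjusted p = 0.00231 from limma), and Cks1b, the small CDK-binding protein that Skp2 needs for this, had 0.31 (0.16 to 0.46, adjusted p = 0.0107 from limma). Fbxw7, the F-box protein that marks cyclin E itself, had 0.26 (0.11 to 0.41, adjusted p = 0.0261 from limma), so that ligase genes of opposite action on Cdk2 activity differed in the same direction. A second, dimmer cluster of Fbxw7, below the median of every array, had a log2 ratio of 0.06. Ccna2, the cyclin of S phase and G2, had 11.04, 11.07, 11.11 and 10.85 log2 in AD replicates 1 to 4, against 10.82, 10.60, 10.72 and 10.87 log2 in AI replicates 1 to 4. Here the groups overlapped, since AI replicate 4 lay above AD replicate 4, and the log2 ratio was 0.27 (adjusted p = 0.0457 from limma).

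**Figure D2:**
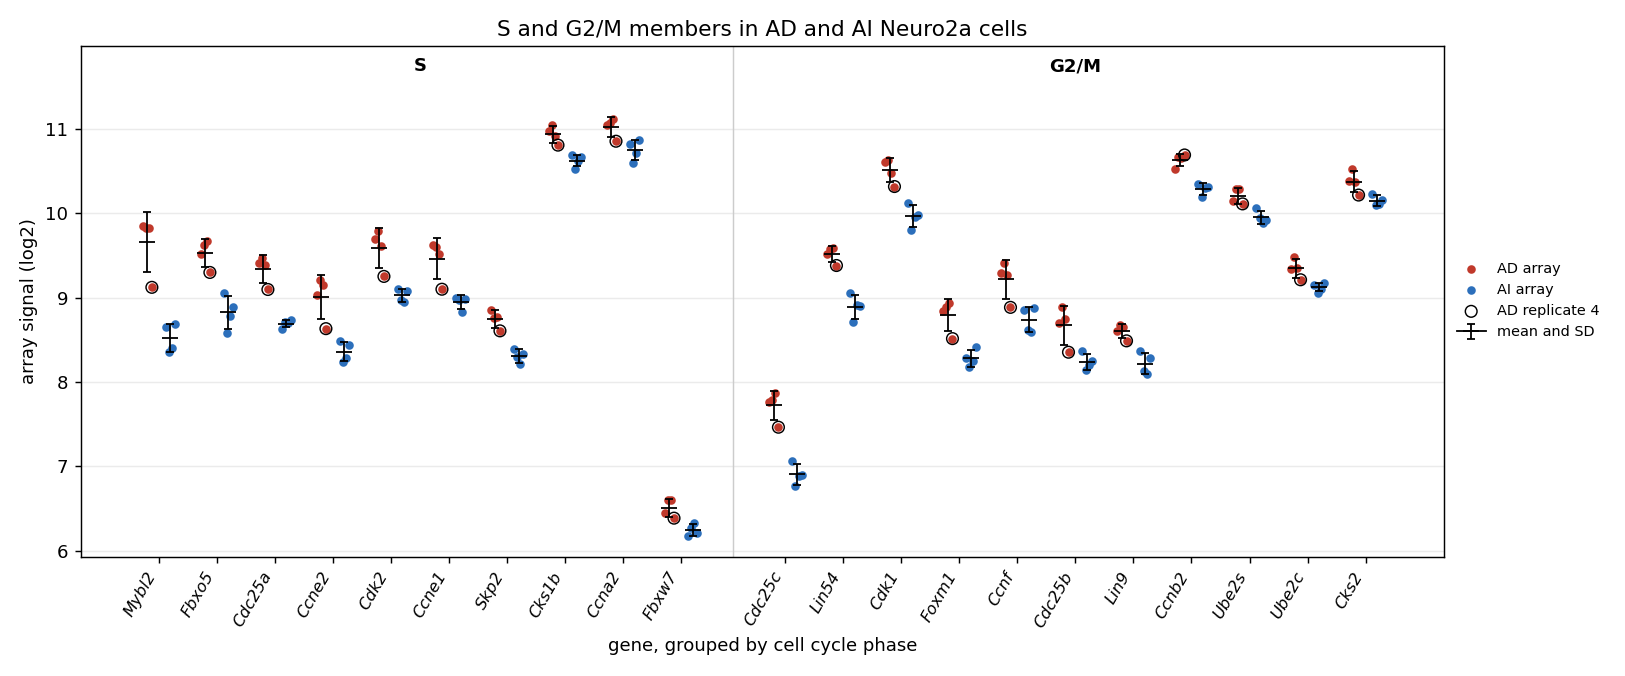
Array signal (log2) of the 10 S and 11 G2/M genes, with AD arrays in red on the left and AI arrays in blue on the right of each gene, black bars for means with SD (n = 4 each) and a ring around AD replicate 4. The ringed array is the lowest AD array for all 10 S genes and for 10 of the 11 G2/M genes, and Ccnb2 is the exception.

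Of 11 measured genes of G2 and mitosis, 2 were called, both higher in AD cells. Without a minimum fold 10 passed the adjusted p toward AD cells, and the median log2 ratio was 0.43. Cdc25c, a phosphatase that activates Cdk1 at the entry into mitosis, was 1.76-fold higher. Its signal was 7.77, 7.79, 7.87 and 7.46 log2 in AD replicates 1 to 4, against 7.07, 6.77, 6.88 and 6.90 log2 in AI replicates 1 to 4. The arrays were well apart (log2 ratio 0.82, standard error 0.10, adjusted p = 0.00055 from limma). Lin54, the DNA-binding subunit of MuvB, which recognizes the CHR word, had 9.52, 9.58, 9.59 and 9.38 log2 in AD replicates 1 to 4, against 9.05, 8.71, 8.91 and 8.90 log2 in AI replicates 1 to 4 (log2 ratio 0.63, standard error 0.08, adjusted p = 0.000939 from limma). The difference was 1.54-fold, near the threshold, and without AI replicate 2 it was below it, at 0.56 on the log2 scale; then 1 G2/M gene was called. Lin9, another MuvB subunit, had a log2 ratio of 0.39 (95% interval 0.22 to 0.56, adjusted p = 0.00741 from limma).

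Cdk1, the kinase of mitosis, had 10.61, 10.64, 10.48 and 10.32 log2 in AD replicates 1 to 4, against 10.12, 9.81, 9.95 and 9.98 log2 in AI replicates 1 to 4. The AD arrays lay above all AI arrays, and the 1.46-fold difference was larger than the spread between replicates but short of the call (log2 ratio 0.54, standard error 0.09, adjusted p = 0.00325 from limma). Its partner gene Ccnb2 had 10.53, 10.66, 10.66 and 10.69 log2 in AD replicates 1 to 4, against 10.35, 10.19, 10.29 and 10.31 log2 in AI replicates 1 to 4 (log2 ratio 0.35, standard error 0.06, adjusted p = 0.00388 from limma). Unlike in the other genes of this group, AD replicate 4 was here the highest of the AD arrays. Foxm1, the transcription factor of G2/M genes, had 8.85, 8.89, 8.93 and 8.51 log2 in AD replicates 1 to 4, against 8.28, 8.18, 8.24 and 8.41 log2 in AI replicates 1 to 4 (log2 ratio 0.52, standard error 0.10, adjusted p = 0.00606 from limma). Without AD replicate 4 the log2 ratios of Cdk1 and Foxm1 were both 0.61, and 5 G2/M genes were called.

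Ccnf, the gene of cyclin F, which binds no CDK and serves as an F-box protein, had a log2 ratio of 0.48 (95% interval 0.21 to 0.74, adjusted p = 0.0215 from limma). The margin was small in 1 array, where AD replicate 4 at 8.885 log2 lay just above AI replicate 4 at 8.877 log2. Cdc25b, a phosphatase that acts before Cdc25c at mitotic entry, had 0.43 (0.19 to 0.67, adjusted p = 0.0232 from limma), and its arrays overlapped, with 8.35 log2 in AD replicate 4 and 8.37 log2 in AI replicate 1. Ube2c and Ube2s, the enzymes that start and extend ubiquitin chains for the APC/C, had log2 ratios of 0.22 (adjusted p = 0.0448 from limma) and 0.26 (adjusted p = 0.0256 from limma), and a second Ube2s cluster had 0.28. Cks2, the second small CDK-binding protein, had 0.22 (95% interval 0.06 to 0.38, adjusted p = 0.0614 from limma). It has 3 clusters, and the other 2 had 0.22 and 0.27; near-identical copies of Cks2 and Ube2s in the genome may share their probes, so these values are uncertain.

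The G1 genes showed small differences in both directions. Of 6 genes, none was called, 1 had an adjusted p under 0.05 toward AD cells and 1 toward AI cells at any fold, and the median log2 ratio was 0.09. Ccnd1, the cyclin that growth factor signals induce, had 11.21, 11.23, 11.21 and 11.12 log2 in AD replicates 1 to 4, against 11.35, 11.37, 11.36 and 11.34 log2 in AI replicates 1 to 4. It was the gene among the 40 with all AD arrays below all AI arrays, and the difference was 1.12-fold (log2 ratio -0.17, 95% interval -0.28 to -0.06, adjusted p = 0.0454 from limma, and 0.00995 to 0.353 over the alternative settings). With any 1 array left out the adjusted p from limma was 0.0559 to 0.110, over 0.05 each time. Ccnd3 had 9.19, 9.37, 9.03 and 9.07 log2 in AD replicates 1 to 4, against 8.84, 8.90, 8.77 and 8.89 log2 in AI replicates 1 to 4. It differed in the opposite direction to Ccnd1 and without overlap (log2 ratio 0.32, standard error 0.08, adjusted p = 0.022 from limma). Ccnd2 had a log2 ratio of 0.21 (0.02 to 0.40, adjusted p = 0.124 from limma), with an AI mean below the median of every array.

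Of the kinases that bind D-type cyclins, Cdk4 had 11.25, 11.38, 11.34 and 11.18 log2 in AD replicates 1 to 4, against 11.16, 11.15, 11.16 and 11.17 log2 in AI replicates 1 to 4. The AI arrays were nearly identical and lay below each AD array, yet the log2 ratio was only 0.13 (95% interval 0.0013 to 0.26, adjusted p = 0.162 from limma). Its window, shown above, holds E-boxes and no CHR or E2F word. Cdk6 was dim, with means of 5.23 ± 0.11 log2 in AD cells, against 5.18 ± 0.06 log2 in AI cells (SD, n = 4 each), below the median of every array, where a difference may not be detectable. Fzr1, the APC/C activator Cdh1 that keeps mitotic cyclins low in G1, had -0.07 (-0.20 to 0.05, adjusted p = 0.417 from limma).

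**Figure D3:**
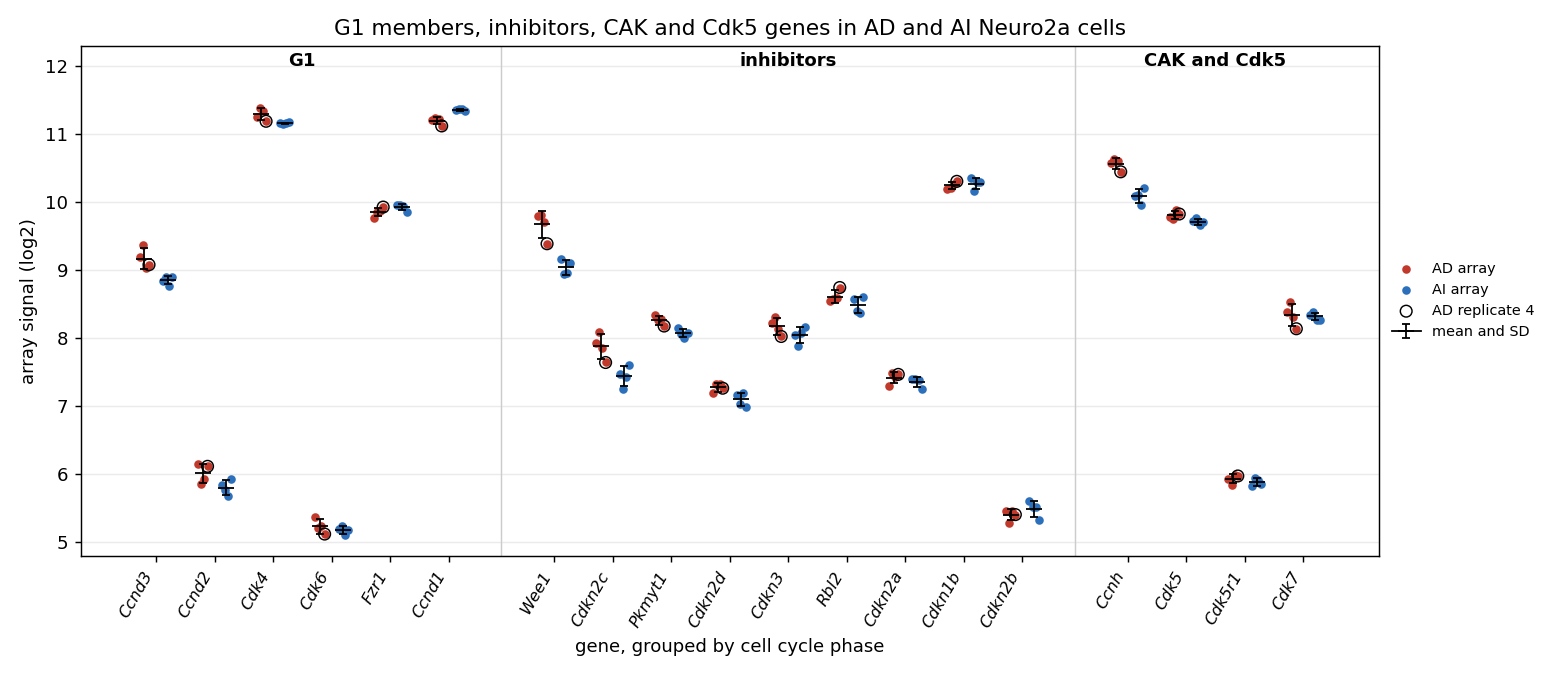
Array signal (log2) of the G1 genes, the inhibitors and the CAK and Cdk5 genes, with AD arrays in red on the left and AI arrays in blue on the right of each gene, black bars for means with SD (n = 4 each) and a ring around AD replicate 4. Wee1, Ccnh, Ccnd3, Cdkn2c, Cdk4 and Pkmyt1 have all AD arrays above all AI arrays, with narrow gaps for Cdkn2c, Cdk4 and Pkmyt1. Ccnd1 is the gene with all AD arrays below.

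Of 9 genes of inhibitors, 1 was called, with higher signal in AD cells. Without a minimum fold, 3 passed the adjusted p toward AD cells and none toward AI cells. The called gene was Wee1, the kinase that restrains Cdk1 until mitosis. Its signal was 9.79, 9.80, 9.71 and 9.38 log2 in AD replicates 1 to 4, against 9.16, 8.93, 8.95 and 9.10 log2 in AI replicates 1 to 4. AD replicate 4 was again the nearest to the AI arrays, which did not reach it (1.55-fold, log2 ratio 0.64, standard error 0.10, adjusted p = 0.00261 from limma). Pkmyt1, the gene of Myt1, the membrane-bound kinase with the same target, had 0.19 (95% interval 0.06 to 0.32, adjusted p = 0.0452 from limma).

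The CDK inhibitor genes proper were not called. Cdkn2c, the gene of p18, an inhibitor of Cdk4 and Cdk6, had 7.92, 8.09, 7.85 and 7.64 log2 in AD replicates 1 to 4, against 7.47, 7.24, 7.42 and 7.61 log2 in AI replicates 1 to 4. The lowest AD array, replicate 4, was only just above the highest AI array, and the log2 ratio was 0.44 (standard error 0.11, adjusted p = 0.0198 from limma). Cdkn1b, the gene of p27, which inhibits Cdk2 and is controlled largely by protein degradation, had 10.19, 10.20, 10.26 and 10.30 log2 in AD replicates 1 to 4, against 10.34, 10.15, 10.28 and 10.29 log2 in AI replicates 1 to 4. The arrays were interleaved (log2 ratio -0.03, 95% interval -0.16 to 0.10, adjusted p = 0.818 from limma), and a second cluster of the gene had a log2 ratio of -0.0014. The interval lay well within 1.5-fold in either direction, but it reflects only the spread between these samples, which may be technical.

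Of the other members of the INK4 family, which inhibit Cdk4 and Cdk6, Cdkn2d had a log2 ratio of 0.18 (95% interval 0.03 to 0.32, adjusted p = 0.0919 from limma) and Cdkn2a 0.06 (-0.08 to 0.20, adjusted p = 0.572 from limma). The locus of Cdkn2a encodes both p16 and p19Arf, which the gene-level cluster does not separate. Cdkn2b, with means of 5.40 ± 0.08 log2 in AD cells, against 5.48 ± 0.12 log2 in AI cells (SD, n = 4 each), was below the median of every array. Cdkn3, a phosphatase that removes the activating phosphate from Cdk2, had 0.13 (-0.05 to 0.31, adjusted p = 0.338 from limma). Rbl2, the pocket protein p130 that represses cycle genes in resting cells together with MuvB, had 0.12 (-0.04 to 0.29, adjusted p = 0.306 from limma).

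Outside the phases, the CDK-activating kinase and the neuronal Cdk5 were compared. Ccnh, the cyclin of the activating kinase and of the transcription factor TFIIH, had 10.57, 10.63, 10.59 and 10.44 log2 in AD replicates 1 to 4, against 10.08, 10.10, 9.95 and 10.20 log2 in AI replicates 1 to 4. The groups were well apart, and the 1.39-fold difference was under the threshold for a call (log2 ratio 0.48, standard error 0.07, adjusted p = 0.00165 from limma). Its kinase Cdk7 had 0.02 (95% interval -0.16 to 0.21, adjusted p = 0.899 from limma), and a second, dimmer cluster of Cdk7 had -0.23 (adjusted p = 0.0595 from limma), so that the clusters of this gene disagree in direction. Cdk5, a kinase of postmitotic neurons, had 0.10 (-0.02 to 0.22, adjusted p = 0.267 from limma) and its activator gene Cdk5r1 had 0.05 (-0.07 to 0.18, adjusted p = 0.585 from limma).

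**Figure D4:**
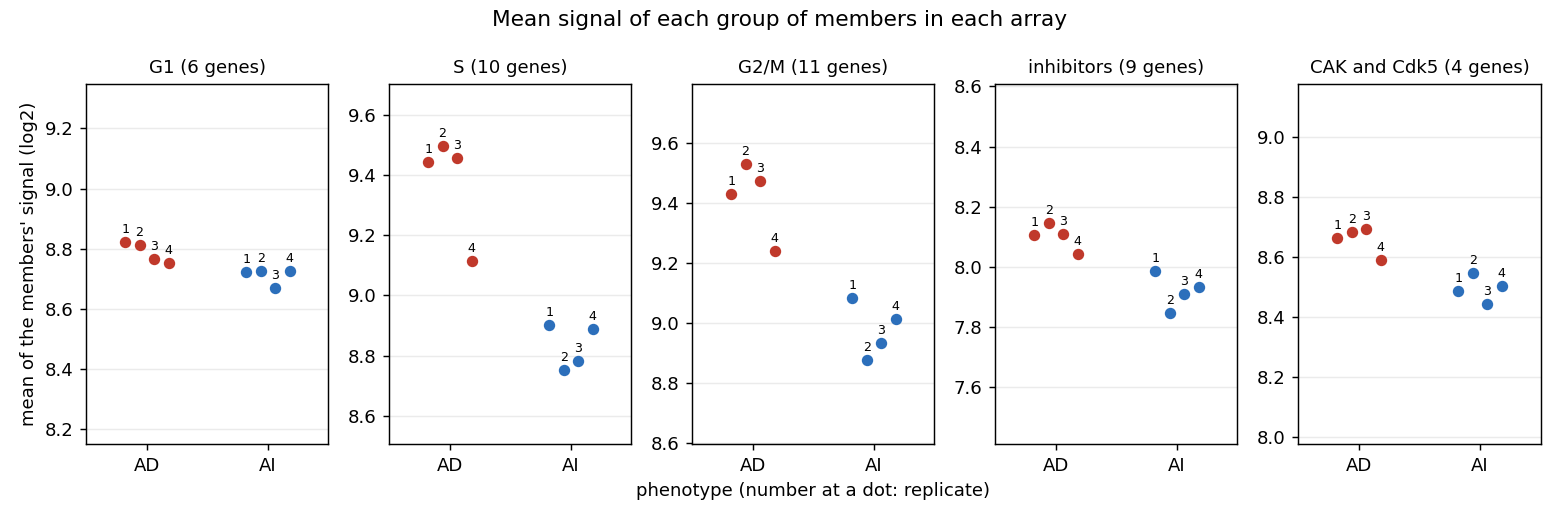
Mean signal (log2) over the genes of each group in each array, with AD arrays in red on the left, AI arrays in blue on the right and the replicate number at each dot; each panel spans the same number of log2 units. In the S group AD replicates 1 to 3 lie at 9.44 to 9.50, AD replicate 4 at 9.12 and the AI arrays at 8.75 to 8.90.

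Averaged over the genes of a group, the S genes had 9.44 to 9.50 log2 in AD replicates 1 to 3 and 9.12 log2 in AD replicate 4, against 8.75 to 8.90 log2 in AI cells. The G2/M genes had 9.43 to 9.53 log2 in AD replicates 1 to 3 and 9.24 log2 in AD replicate 4, against 8.88 to 9.08 log2 in AI cells. In both groups AD replicate 4 was intermediate but above each AI array. The G1 genes had 8.76 to 8.82 log2 in AD replicates 1 to 3 and 8.75 log2 in AD replicate 4, against 8.67 to 8.73 log2 in AI cells, so the arrays of the phenotypes were close together. The inhibitors had 8.10 to 8.15 log2 in AD replicates 1 to 3 and 8.04 log2 in AD replicate 4, against 7.84 to 7.99 log2 in AI cells.

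The wider machinery was examined through lists of related genes. Over the named genes, 2.02% were called higher and 2.40% lower in AD cells. Without a minimum fold, 11% of them passed the adjusted p toward AD cells and 10.7% toward AI cells. Of 34 other cyclins, CDKs and their partners, none was called, 1 had an adjusted p under 0.05 toward AD cells and 2 toward AI cells at any fold, and the median log2 ratio was 0.02. None of 15 APC/C subunits and activators was called, and 3 passed the adjusted p toward AD cells, with a median of 0.12. None of 16 measured genes of SCF and other cycle ligases was called with all arrays. At any fold, 2 of them passed the adjusted p toward AD cells and 1 toward AI cells, with a median of 0.03. Without AD replicate 4, 2 were called higher in AD cells, against 2.65% of the named genes. Of 17 genes of the Rb, E2F and MuvB network, 4 were called higher in AD cells and none lower, with a median of 0.19, and without a minimum fold 7 passed the adjusted p toward AD cells and 1 toward AI cells. The gene toward AI cells, named after its values were seen, was Myb, with 9.03 log2 in AD cells, against 9.53 log2 in AI cells (log2 ratio -0.49, adjusted p = 0.00132 from limma), and its AD arrays all lay below its AI arrays. The called genes with the largest ratios were E2f2, an activator of S phase genes (7.94 log2 in AD cells, against 6.78 log2 in AI cells, log2 ratio 1.16), E2f8, a repressor of E2F targets that cycling cells express (9.57 log2 in AD cells, against 8.66 log2 in AI cells, log2 ratio 0.91), and Rbl1, the pocket protein p107 (9.35 log2 in AD cells, against 8.56 log2 in AI cells, log2 ratio 0.79).

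Among 9 measured genes of other growth inhibitors, 1 was called higher and 1 lower in AD cells, against 2.02% and 2.40% of the named genes. Gadd45b, a stress-induced gene whose product binds Cdk1, had 7.65 log2 in AD cells, against 7.03 log2 in AI cells (log2 ratio 0.62, adjusted p = 0.000222 from limma). Btg2, an antiproliferative gene that represses cyclin D1 transcription, had 7.13 log2 in AD cells, against 8.18 log2 in AI cells (log2 ratio -1.05, adjusted p = 5.12e-05 from limma). Cdkn1a, the gene of p21, lacked a single-symbol cluster and was not analysed here.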

How the data were processed

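Total RNA of 4 AD and 4 AI cultures of Neuro2a cells was hybridized to Affymetrix mouse ST gene arrays, 1 array per sample. The authors deposited log2 signals for 35556 transcript clusters, which the submitters' processing notes credit to Partek 6.5 and GCRMA, a background correction and normalization that evens the arrays and can compress low signals. The methods also name later software and other normalizations, and which of them made the table is known only from the notes. The log2 scale was judged from the range of the values. Clusters were named by the platform annotation, and 21698 of 21789 single-symbol clusters were matched to RefSeq (GRCm38.p6) by gene number, with 0 symbols updated. Arrays give no counts, so that precision rests on the number of arrays.

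The phenotypes were compared with limma 3.58.1 (R 4.3.3; lmFit, eBayes, no covariate). The fit was tested on simulated data of 35556 clusters with 200 changed, where it recovered 84% of those changed 1.75-fold and 90% of those changed 2-fold and made 5 false calls. The simulated noise was independent in each cluster, so a shift shared by many genes in a single array was not covered. Changes smaller than 1.75-fold were not simulated. Tables and plots used Python 3.11.15, pandas 2.3.3, numpy 2.4.6, scipy 1.17.1 and matplotlib 3.10.9. With 4 arrays a group, the smallest exact permutation p (two-sided) is 0.0286. The genes and lists were chosen with earlier results of these data known. All 40 measured genes are named, and from each related list up to 3 called genes per direction. The phases were assigned from textbook roles. The alternatives were other normalizations, a filter on dim clusters, other variance models, array weights, the replicate number as a block, averaging of a gene's clusters, other thresholds and leaving out each array. The authors' own table of ratios and p-values was not used.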

Additional observations from a re-analysis of the deposited data

Results flagged for a closer look

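In 3 of 80 groups of 4 arrays, 1 array lay far from the other 3 by Dixon's criterion, where chance gives about 4. Mybl2 in AD replicate 4 was 9.12 log2, against 9.82 to 9.85 log2 in the other AD arrays. Fzr1 in AI replicate 4 was 9.85 log2, against 9.95 to 9.96 log2 in the other AI arrays. Cdkn2a in AI replicate 4 was 7.24 log2, against 7.38 to 7.39 log2 in the other AI arrays.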

How the results depend on the processing

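No gene called with all arrays reversed its direction under any of the 16 refits, and 30 of the 40 genes kept their direction and their side of the threshold in all of those that measured them. With each array centred on its median, 11 genes were called, 4 of them of G2/M. The share of all features called in that refit was not counted. Fzr1 and Cdkn1b turned to 0.0017 and 0.0498 on the log2 scale. Centring adds the same amount to every gene's ratio, and it put the median of all clusters at 0.08, against -0.00078 without it. The shift in the ratios thus follows from its construction and is common to all genes. Cdk7 turned to -0.10 with the mean of its clusters, to -0.0027 after quantile normalization and to -0.0428 without AD replicate 2 (-0.0428 to 0.0898 with 1 array left out). With an adjusted p under 0.05 and no minimum fold, 26 genes were called in all, 2 of G1, 10 of S, 10 of G2/M, 3 inhibitors and 1 of the CAK and Cdk5 group. Leaving out 1 array gave 6 to 12 called genes, 1 to 5 of them of G2/M, with the highest count without AD replicate 4. The calls lost were Ccne2 without AD replicate 2 and Lin54 without AI replicate 2. Of the 26 genes under an adjusted p of 0.05 at any fold, 11 were not under it in some of the 16 refits. Its highest value there was 0.353 for Ccnd1, 0.128 for Pkmyt1, 0.119 for Ccna2 and Ube2c, 0.0779 for Ube2s, 0.076 for Fbxw7, 0.0757 for Cdkn2c, 0.0724 for Cdc25b, 0.0721 for Ccnf, 0.067 for Ccnd3 and 0.0503 for Ccne1. With the replicate number as a block, 7 genes were called, the same 7 as without it. The numbers gave no sign of pairing, since the correlation of deviations between arrays of the same number was -0.17 to 0.08. Cdk6 and Cdkn2b were dimmer than each array's median and were left out by the dim filter, so low signal limits what can be said of them.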
